A study of Marchantia polymorpha with 18 samples.

Results

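MpHA18 (Mp3g12400), MpAMT2.4 (Mp8g18510) and MpNPF9 (Mp3g09240) are 3 membrane transport genes of the liverwort Marchantia polymorpha, taken by identifier from the 20574 genes listed in the deposited table. They were chosen by measured values of these data, since each stood near the top of a comparison. MpHA18 ranked 3 among 571 genes with a symbol that were lower in mock-treated Mpdes6fad5 than in mock-treated Tak-1. MpAMT2.4 ranked 2 and MpNPF9 ranked 5 among 152 such genes that were lower in mock Mpcoi1 than in mock Tak-1, and MpNPF9 also ranked 9 among 735 that were lower after wounding in Tak-1. Values from those comparisons, and from any that shares a library with them, are therefore given as descriptions with no p-value. A p-value is printed for a gene only where neither group compared held such a library, which left 1 wound response for each. The comparisons behind the choice were inferred from a rule for named genes that did not take in mock Mpdes6fad5 against mock Mpcoi1. There MpHA18 differed by -2.51, MpAMT2.4 by 1.52 and MpNPF9 by 2.84 log2 units. If that comparison played a part, the printed p-values are not free of the choice. The SE of every test also draws on the spread in all 18 libraries.

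Messenger RNA was sequenced from apical thallus fragments without gemma cups, in 3 libraries for each of 6 groups. The groups were wounded and mock-treated Mpcoi1, wounded and mock-treated Mpdes6fad5, and wounded and mock-treated Tak-1, the male wild-type accession. Mpcoi1 is a mutant in the receptor gene of jasmonate-type hormones, and Mpdes6fad5 is a double mutant in 2 fatty acid desaturase genes that act upstream of those hormones. The comparison asks how wounding acts where hormone perception or the supply of its precursors is disturbed. Wounding was done with tweezers on plants grown for 3 weeks. The sample labels give the time as 2 hours and the protocol as 90 min, and each replicate pooled 6 to 8 plants. The alleles, the number of independent lines and the accession in which each mutant was made were not stated in the labels.

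Plasma membrane proton pumps of the HA family spend ATP to push protons out of the cell, which sets the pH gradient and much of the voltage across the membrane. Ammonium transporters of the AMT family pass ammonium through the membrane, and NPF carriers are mostly proton-driven importers. NPF proteins of flowering plants carry nitrate, small peptides and, for some members in Arabidopsis, hormones that include jasmonates. The substrates of MpAMT2.4 and MpNPF9 themselves are known only by family here.

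The 18 libraries held 19382332 to 26303510 reads in genes, so that 3 reads, the limit that a count of 0 allows, corresponded to 0.107 to 0.158 CPM, reads of a gene scaled to a common library size. That limit covers counting error only. MpCOI1, the targeted receptor gene, averaged 25.1 ± 1.76 CPM in mock Mpcoi1 and 87.6 ± 3.41 CPM in mock Tak-1 (SD, n = 3 each). MpDES6 averaged 46.3 ± 2.50 CPM and MpFAD5 285 ± 28.7 CPM in mock Mpdes6fad5, against 68.4 ± 7.42 and 467 ± 38.5 CPM in mock Tak-1. Wounded Tak-1 replicate 3 correlated less with the other libraries of its group (r = 0.986 and 0.988) than those did with each other (r = 0.995), and values without it are given for the 3 described genes and for MpAMT2.3. RBCS, a photosynthetic tissue marker, was present at 109 to 271 CPM in all libraries. The 3 oil body markers summed to 74.1 to 78.5 CPM in wounded and 62.7 to 72.6 CPM in mock Mpcoi1, to 120 to 128 CPM in wounded and 67.1 to 72.0 CPM in mock Mpdes6fad5, and to 139 to 203 CPM in wounded and 65.4 to 77.0 CPM in mock Tak-1. Most of that sum was MpC1HDZ, which was called higher in Mpcoi1, Mpdes6fad5 and Tak-1 (0.27, 0.98 and 1.43 log2 units). MpERF13 (-0.63, -0.53 and -0.65) and MpSYP12B (-0.80, -0.51 and -0.67) were called lower in each genotype. Of the 2 rhizoid markers, which summed to 384 to 521 CPM in wounded and 303 to 354 CPM in mock libraries, MpNOP1 was called higher in each (1.30, 1.20 and 1.28). MpWDL stood at 0.02 in Mpcoi1 and was called lower in Mpdes6fad5 (-0.16) and higher in Tak-1 (0.13). Of the 4 male germline genes, MpPRM and MpLC7 never passed 0.139 CPM, MpDUO1 was called higher in each genotype (1.56, 1.73 and 1.56, up to 6.85 CPM), and MpGEX2 reached 6.77 CPM and differed by -0.05 in Mpcoi1, 0.42 in Mpdes6fad5 (called higher) and -0.55 in Tak-1 (called lower). The 3 gemma cup and apical markers summed to 186 to 329 CPM in wounded and 241 to 294 CPM in mock libraries. MpCLV1 made up most of that sum, stood at 0.06 in Mpcoi1 and 0.07 in Tak-1, and was called lower in Mpdes6fad5 (-0.49). MpCLE2 was called higher in each genotype (0.87, 1.09 and 0.97). MpGCAM1 was called higher in Mpdes6fad5 and Tak-1 (1.51 and 1.15) and stood at 0.19 in Mpcoi1. In mock plants MpGCAM1 was called lower in Mpcoi1 and Mpdes6fad5 than in Tak-1 (-0.88 and -0.82), where it averaged 0.876 CPM. The part of all these markers in the differences below was not tested. In whole tissue, fewer cells of a type and less RNA per cell cannot be told apart.

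MpHA18, a proton pump, was low in the desaturase double mutant before and after wounding, and it lay lower in wounded than in mock plants of each genotype. It had 15.7, 18.1 and 16.8 CPM in wounded Mpcoi1, against 47.3, 40.9 and 53.3 CPM in mock Mpcoi1. In Mpdes6fad5 it had 3.36, 3.71 and 4.53 CPM after wounding, against 5.78, 9.23 and 7.53 CPM in mock plants. In Tak-1 it had 19.0, 10.6 and 15.8 CPM after wounding, against 51.4, 46.1 and 51.3 CPM in mock plants. Wounded libraries lay below the mock libraries of their own genotype throughout, and every Mpdes6fad5 library lay below every library of the other genotypes. How many of all genes had Mpdes6fad5 set apart in this way was not counted.

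Wounding left MpHA18 at 35.8% of its mock level in Mpcoi1, at 51.5% in Mpdes6fad5 and at 30.5% in Tak-1, as ratios of mean CPM. The fall in Mpcoi1 was -1.42 ± 0.17 on the log2(CPM + 1) scale (SE, n = 3 each; limma, adjusted p = 1.29e-06), with no overlap between groups. Its groups share no library with the comparison named above for the choice, but the SE is pooled over all groups, those of the choice among them. Of all 13220 genes tested, 28.5% were called lower in that comparison and 34.1% had wounded libraries all below the mock ones, so a fall was common. The difference was -0.79 ± 0.17 in Mpdes6fad5 and -1.68 ± 0.17 in Tak-1, given as descriptions, and -1.73 in Tak-1 without wounded replicate 3. The response in Mpcoi1 minus that in Tak-1 was 0.26 ± 0.24 log2 units, with a 95% interval of -0.25 to 0.76. It ranged from 0.04 without Tak-1 wounded replicate 2 to 0.43 without Tak-1 wounded replicate 1, and was 0.16 without Mpcoi1 mock replicate 2. The response in Mpdes6fad5 minus that in Tak-1 was 0.89 ± 0.24, on a level that was already low.

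The order of MpHA18 group means began with mock Tak-1 at 49.6 ± 3.07 CPM and mock Mpcoi1 at 47.2 ± 6.19 CPM (SD, n = 3 each), whose libraries overlapped. Mock Mpcoi1 minus mock Tak-1 was -0.08 on the log2 scale, with a 95% interval of -0.43 to 0.28. Wounded Mpcoi1 followed at 16.9 ± 1.17 CPM and wounded Tak-1 at 15.1 ± 4.25 CPM, which also overlapped. Mock Mpdes6fad5 at 7.51 ± 1.73 CPM and wounded Mpdes6fad5 at 3.87 ± 0.598 CPM came last and were separate from each other. The unwounded double mutant thus held less MpHA18 transcript than the wounded plants of the other genotypes, with a log2 difference from mock Tak-1 of -2.59 ± 0.17, the value that picked the gene. Of all genes, 26.8% had every mock Mpdes6fad5 library below every mock Tak-1 library.

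**Figure D1:**
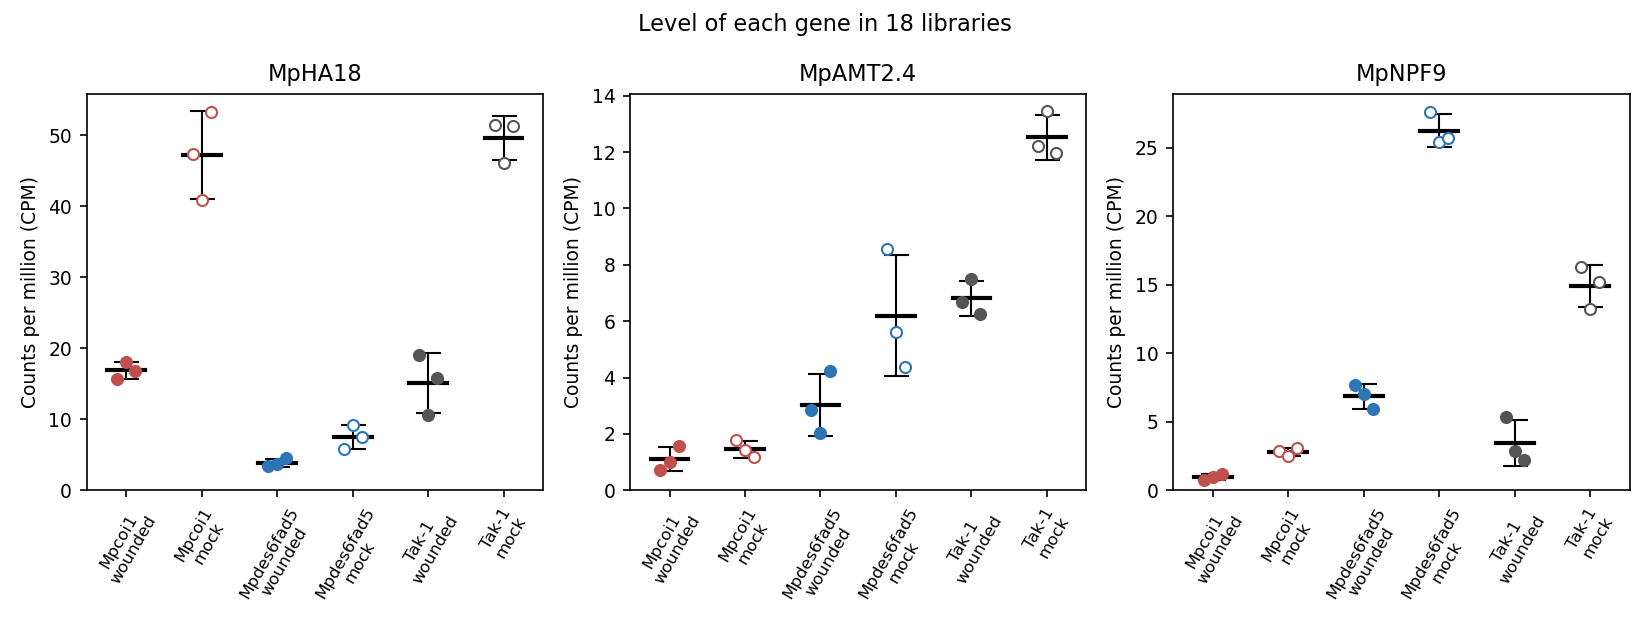
CPM of MpHA18, MpAMT2.4 and MpNPF9 in each of the 18 libraries (points; filled for wounded, open for mock), with the group mean and SD (n = 3). MpHA18 is lowest in both Mpdes6fad5 groups, MpAMT2.4 lowest in both Mpcoi1 groups, and MpNPF9 highest in mock Mpdes6fad5 at 25.4 to 27.6 CPM.

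MpHA18 stands in a row of related genes. By identifier it lies between MpHA14 (Mp3g12390) and MpHA4 (Mp3g12410), with MpHA5 (Mp3g12380) before them, and MpHA15 (Mp3g12440) beyond them had no reads in any library. These 4 expressed neighbours did not move alike in the double mutant. MpHA5 averaged 26 ± 2.94 CPM in mock Mpdes6fad5 and 60.1 ± 3.36 CPM in mock Tak-1, and MpHA14 averaged 77.4 ± 4.69 and 164 ± 18.9 CPM in the same groups. Both were called lower, by -1.18 ± 0.20 and -1.07 ± 0.11 log2 units (SE; limma, adjusted p = 0.000191 and 1.22e-06). MpHA4, the next identifier after MpHA18, was called higher, at 104 ± 13.6 CPM in mock Mpdes6fad5 and 52.8 ± 6.96 CPM in mock Tak-1 (0.97 ± 0.11 log2 units, adjusted p = 3.60e-06).

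The share of reads within this row needs no scaling between libraries. MpHA18 took 8.69% ± 1.04 of the reads of the 4 genes in wounded Mpcoi1 and 16.0% ± 1.13 in mock Mpcoi1. It took 2.43% ± 0.307 in wounded and 3.49% ± 0.762 in mock Mpdes6fad5, and 8.79% ± 1.99 in wounded and 15.2% ± 0.480 in mock Tak-1 (SD, n = 3 each). Its level in Mpdes6fad5 was thus low against its neighbours as well as against the whole library. Sequences of the 4 genes were not compared here, so whether similar copies shared reads was not tested.

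**Figure D2:**
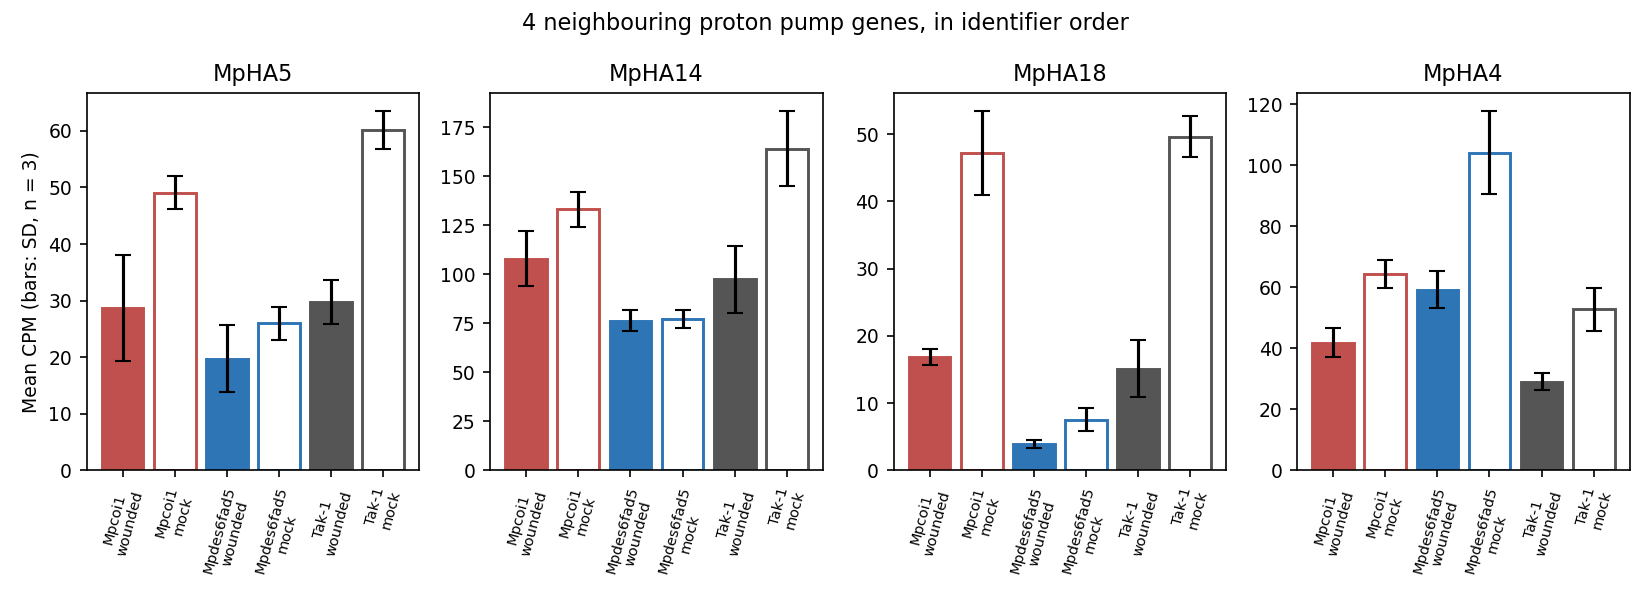
Mean CPM of 4 proton pump genes with adjoining identifiers in the 6 groups (bars start at 0; error bars are SD, n = 3; filled for wounded, open for mock). In mock Mpdes6fad5 against mock Tak-1, MpHA5, MpHA14 and MpHA18 are lower while MpHA4 is higher, at 104 against 52.8 CPM.

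Among the 17 other listed proton pumps, 14 were measured well enough to be tested. After wounding, 9 were called lower and 2 higher in Mpcoi1, 4 lower and 1 higher in Mpdes6fad5, and 7 lower and 2 higher in Tak-1. The background over all genes was 28.5% lower and 24.5% higher in Mpcoi1, 28.9% and 28.1% in Mpdes6fad5, and 30.6% and 26% in Tak-1. The median pump differed by -0.45, -0.16 and -0.32 log2 units in Mpcoi1, Mpdes6fad5 and Tak-1, against -0.05, -0.03 and -0.06 for the median gene. MpHA19 fell in each genotype, to 2.30 ± 0.355 CPM in wounded Mpcoi1 against 8.57 ± 0.465 CPM in mock Mpcoi1, with differences of -1.54, -1.16 and -1.29 log2 units in Mpcoi1, Mpdes6fad5 and Tak-1 (SE 0.15).

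MpHA8 went the other way and was the pump with the largest rise among those tested. It averaged 161 ± 6.22 CPM in wounded and 53.9 ± 5.76 CPM in mock Mpcoi1, 248 ± 14.0 CPM in wounded and 48.3 ± 3.61 CPM in mock Mpdes6fad5, and 250 ± 24.7 CPM in wounded and 58.7 ± 2.79 CPM in mock Tak-1 (SD, n = 3 each). Its rise was 1.57 ± 0.08, 2.34 ± 0.08 and 2.07 ± 0.08 log2 units in Mpcoi1, Mpdes6fad5 and Tak-1 (SE; limma, adjusted p = 1.43e-11, 5.46e-14 and 2.21e-13). The response in Mpcoi1 minus that in Tak-1 was -0.50 ± 0.12 log2 units (limma, adjusted p = 0.00942). MpHA3 also rose, in Mpcoi1 by 0.45 and in Tak-1 by 0.23 log2 units. Among mock plants, 5 of the 14 were called lower and 3 higher in Mpdes6fad5 against Tak-1, where 20.4% and 17.5% of all genes were called. In mock Mpcoi1 the call was made for MpHA2 alone, at 209 ± 8.56 CPM against 137 ± 4.22 CPM in mock Tak-1 (0.61 ± 0.11 log2 units, adjusted p = 0.00264), where 2.1% of genes were called higher and 4.56% lower. No other pump was called lower there by limma, with 1 at an unadjusted p under 0.05 and 0 by voom.

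MpAMT2.4, an ammonium transporter, was low in the receptor mutant before and after wounding, and wounding lowered it in the double mutant. In Mpcoi1 it had 0.725, 1.02 and 1.56 CPM after wounding, against 1.78, 1.42 and 1.17 CPM in mock plants. In Mpdes6fad5 it had 2.83, 2.04 and 4.22 CPM after wounding, against 8.57, 5.63 and 4.38 CPM in mock plants. In Tak-1 it had 6.69, 7.48 and 6.25 CPM after wounding, against 12.2, 13.4 and 12 CPM in mock plants. All Mpcoi1 libraries lay below all others, wounded and mock Mpcoi1 overlapped, and the wounded libraries lay below the mock ones in Mpdes6fad5 and Tak-1. How many of all genes had Mpcoi1 set apart from all others was not counted. For the mock libraries alone, 16.3% of all genes had every Mpcoi1 library below every Tak-1 library. These levels rested on 17 to 335 reads per library.

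Wounding left MpAMT2.4 at 75.6% of its mock level in Mpcoi1, 48.9% in Mpdes6fad5 and 54.3% in Tak-1. The fall in Mpdes6fad5, whose groups share no library with the comparison named above for the choice, was -0.83 ± 0.21 log2 units (SE pooled over all groups, n = 3 each; limma, adjusted p = 0.00213). In that comparison 28.9% of all genes were called lower and 34.4% had groups that did not overlap in that direction. The nearest libraries of the 2 groups were wounded replicate 3 at 4.22 CPM and mock replicate 3 at 4.38 CPM. The described differences were -0.24 ± 0.21 in Mpcoi1 and -0.79 ± 0.21 in Tak-1, or -0.74 in Tak-1 without wounded replicate 3. The value in Mpcoi1 was -0.10 without wounded replicate 1, -0.14 without mock replicate 1 and -0.39 without wounded replicate 3, and ran from -0.08 to -0.46 with other constants or voom. The response in Mpcoi1 minus that in Tak-1 was 0.56 ± 0.29, with a 95% interval of -0.05 to 1.17, at a level in Mpcoi1 where the added 1 CPM compresses differences.

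Mock Tak-1 held the most MpAMT2.4, at 12.5 ± 0.796 CPM, and wounded Tak-1 at 6.81 ± 0.626 CPM and mock Mpdes6fad5 at 6.19 ± 2.15 CPM followed with overlapping libraries (SD, n = 3 each). Wounded Mpdes6fad5 came next at 3.03 ± 1.11 CPM. Mock Mpcoi1 at 1.45 ± 0.306 CPM and wounded Mpcoi1 at 1.10 ± 0.422 CPM overlapped at the bottom. The mock level in Mpcoi1 was 11.6% of that in Tak-1 (-2.47 ± 0.21 log2 units, the value that picked the gene), and the mock level in Mpdes6fad5 was 49.4% of it (-0.95 ± 0.21). The unwounded double mutant thus sat between the receptor mutant and Tak-1.

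MpAMT2.4 is the last of 7 ammonium transporter identifiers in a row, from MpAMT2.8 (Mp8g18430) to Mp8g18510. The other 6 stayed at or below 0.491 CPM in every library and were not tested. Of the next identifiers, MpVAS1/PAD/ISS (Mp8g18520) and Mp8g18530 were not called in mock Mpcoi1 against mock Tak-1. Among 12 tested genes on each side, 0 of 24 were called in either direction there by limma, 7 had an unadjusted p under 0.05, and voom called 0. No neighbour within that window thus passed the test where MpAMT2.4 was low.

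Elsewhere in the genome, 6 of the 16 other listed ammonium transporters were tested. After wounding, 2 of the 6 were called lower in each genotype, MpAMT2.2 and MpAMT2.3, where 28.5%, 28.9% and 30.6% of all genes were called lower in Mpcoi1, Mpdes6fad5 and Tak-1. MpAMT2.2 averaged 5.03 ± 0.702 CPM in wounded and 11.2 ± 0.281 CPM in mock Mpcoi1, 3.08 ± 0.287 CPM in wounded and 4.44 ± 0.818 CPM in mock Mpdes6fad5, and 3.24 ± 1.24 CPM in wounded and 6.57 ± 0.348 CPM in mock Tak-1. MpAMT2.3 differed by -0.67, -1.01 and -0.45 log2 units in Mpcoi1, Mpdes6fad5 and Tak-1 (SE 0.17; limma, adjusted p = 0.00342, 7.66e-05 and 0.0347). The Tak-1 call of MpAMT2.3 was lost without Tak-1 mock replicate 1, 2 or 3 and without wounded replicate 3, where it was -0.19, and also with no filter on low values, quantile normalization, median-of-ratios rescaling or only the groups compared. The Mpdes6fad5 call of MpAMT2.2 (-0.41) was lost by voom, with no filter and without Mpdes6fad5 mock replicate 3 or wounded replicate 2 or 3.

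MpAMT1.2 rose after wounding in both mutants. It averaged 264 ± 8.99 CPM in wounded and 172 ± 6.59 CPM in mock Mpcoi1, and 194 ± 24.7 CPM in wounded and 99.0 ± 12.1 CPM in mock Mpdes6fad5 (0.61 ± 0.12 and 0.97 ± 0.12 log2 units, limma, adjusted p = 0.000427 and 2.80e-06). In Tak-1 it averaged 197 ± 41.8 CPM in wounded and 231 ± 17.5 CPM in mock plants (-0.25 ± 0.12, adjusted p = 0.0972). The response exceeded that of Tak-1 by 0.86 ± 0.18 in Mpcoi1 and 1.21 ± 0.18 in Mpdes6fad5 (adjusted p = 0.00361 and 0.000193). In the unwounded double mutant 4 of the 6 were called lower against Tak-1, namely MpAMT1.2, MpAMT1.4, MpAMT2.2 and MpAMT2.3, where 20.4% of all genes were. The call of MpAMT2.2 there (-0.48) was lost with library totals (-0.37) and without mock replicate 1 or 2 of Mpdes6fad5 or 2 or 3 of Tak-1, at -0.40 to -0.48. In mock Mpcoi1 against mock Tak-1, MpAMT2.2 alone of the 6 was called higher, where 2.1% of all genes were. Its difference was 0.65 to 0.72 without 1 library, and the call was lost in 4 of those 6 fits. There 0 of the 6 were called lower by limma, with 1 at an unadjusted p under 0.05 and 0 by voom. As a share of the reads of all 17 listed AMT genes, MpAMT2.4 took 0.656% ± 0.146 in mock Mpcoi1 and 4.88% ± 2.13 in mock Mpdes6fad5, against 4.21% ± 0.170 in mock Tak-1 (SD, n = 3 each). Within the family, then, its share in mock Mpdes6fad5 overlapped that in mock Tak-1, while its share in mock Mpcoi1 did not.

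MpNPF9 was opposite in the mutants before wounding, low in Mpcoi1 and high in Mpdes6fad5, and low after wounding in each genotype. In Mpcoi1 it had 0.768, 0.973 and 1.16 CPM after wounding, against 2.87, 2.52 and 3.09 CPM in mock plants. In Mpdes6fad5 it had 7.65, 7.0 and 5.90 CPM after wounding, against 27.6, 25.4 and 25.7 CPM in mock plants. In Tak-1 it had 5.32, 2.84 and 2.20 CPM after wounding, against 16.3, 13.2 and 15.2 CPM in mock plants. The wounded libraries lay below the mock ones in every genotype, with no overlap, and the mock libraries of the 3 genotypes formed 3 separate levels. Of all genes, 16.3% had every mock Mpcoi1 library below every mock Tak-1 library, and 24.5% had every mock Mpdes6fad5 library above them.

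Wounding left MpNPF9 at 34.2% of its mock level in Mpcoi1, 26.1% in Mpdes6fad5 and 23.2% in Tak-1. The fall in Mpdes6fad5, whose groups share no library with either comparison named above for the choice, was -1.80 ± 0.18 log2 units (SE pooled over all groups, n = 3 each; limma, adjusted p = 1.00e-07), against the same 28.9% of all genes called lower. The described differences were -0.96 ± 0.18 in Mpcoi1 and -1.89 ± 0.18 in Tak-1, or -1.69 in Tak-1 without wounded replicate 3 and -2.18 without wounded replicate 1. The gap between Mpcoi1 and Tak-1 depends on the scale at such low levels. It was 0.93 ± 0.25 on log2(CPM + 1), 0.70 with 0.1 CPM added in place of 1, and 0.56 as the log2 ratio of mean CPM.

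**Figure D3:**
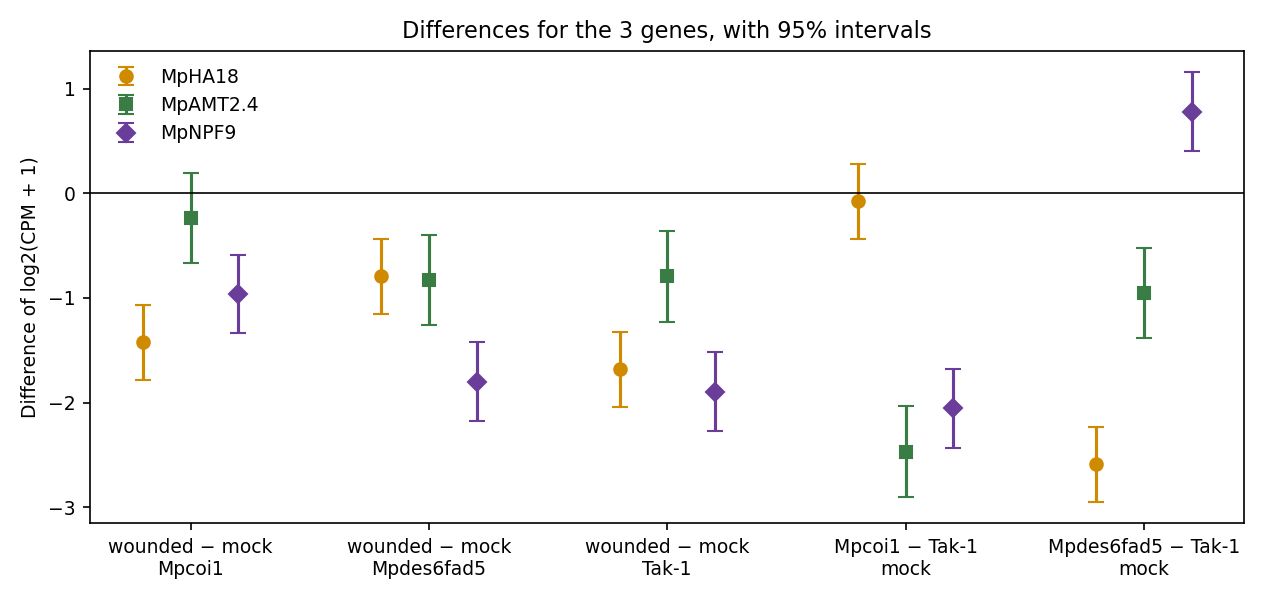
Log2(CPM + 1) differences of the 3 genes for wounded minus mock in each genotype and for each mutant minus Tak-1 in mock plants (points; bars are 95% intervals). MpHA18 is at -0.08 in mock Mpcoi1 and -2.59 in mock Mpdes6fad5, while MpNPF9 is at -2.05 and 0.78.

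From the top, MpNPF9 group means ran from mock Mpdes6fad5 at 26.3 ± 1.20 CPM and mock Tak-1 at 14.9 ± 1.54 CPM to wounded Mpdes6fad5 at 6.85 ± 0.886 CPM (SD, n = 3 each). Wounded Tak-1 at 3.45 ± 1.65 CPM and mock Mpcoi1 at 2.82 ± 0.286 CPM overlapped, and wounded Mpcoi1 was last at 0.966 ± 0.194 CPM. The mock level in Mpcoi1 was 19.0% of that in Tak-1 (-2.05 ± 0.18 log2 units) and in Mpdes6fad5 176% of it (0.78 ± 0.18). Both differences are taken against the same mock Tak-1 libraries. MpNPF9 took 0.559% ± 0.0574 of the reads of all 35 listed NPF genes in mock Mpcoi1 and 4.51% ± 0.149 in mock Mpdes6fad5, against 2.59% ± 0.397 in mock Tak-1.

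The mock differences of MpNPF9 were shared by a stretch of its neighbours. In identifier order, MpNPF9 closes a run of 10 tested genes, Mp3g09150 to Mp3g09240, that were all called lower in mock Mpcoi1 than in mock Tak-1. Of all genes, 4.56% were called lower there. The 603 lower genes formed 526 runs, of which 3 held 4 genes or more and this run alone held 6 or more. The run includes MpNBS-LRR5 (Mp3g09150) and MpNBS-LRR6 (Mp3g09200), named for the nucleotide-binding leucine-rich repeat class to which many plant immune receptors belong. This stretch was noticed after its values were seen, so it is a description with no test of its own. The labels do not give the background of the mutant lines, so the mutations and the lines that carry them cannot be told apart in these mock differences.

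Several of these neighbours were close to absent in Mpcoi1. Mp3g09220, 2 tested genes before MpNPF9, averaged 0.573 ± 0.249 CPM in mock Mpcoi1, against 15.4 ± 0.332 CPM in mock Tak-1. Mp3g09230, the adjoining gene, had no reads in the 3 mock Mpcoi1 libraries and 1.03 to 1.85 CPM in mock Tak-1. MpNBS-LRR6 averaged 0.122 ± 0.0733 CPM in mock Mpcoi1 and 1.63 ± 0.278 CPM in mock Tak-1. At the far end, MpNBS-LRR5 averaged 11.4 ± 1.5 CPM in mock Mpcoi1 and 20.2 ± 0.628 CPM in mock Tak-1. The 3 tested genes before the run, and the next 8 after MpNPF9, were not called there.

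In mock Mpdes6fad5 nearly the same stretch was higher. The 10 tested genes Mp3g09170 to Mp3g09260, MpNPF9 among them, were all called higher than in mock Tak-1, where 17.5% of all genes were called higher. No longer run of higher genes was found in that comparison, in which 4 of 1750 runs held 6 genes or more. Mp3g09190 averaged 21.3 ± 2.29 CPM in mock Mpdes6fad5 and 6.83 ± 1.23 CPM in mock Tak-1, and MpNBS-LRR6 averaged 8.76 ± 0.275 and 1.63 ± 0.278 CPM. Mp3g09170 to Mp3g09240 thus belonged to both runs, and the 2 comparisons share their mock Tak-1 libraries. Among the 24 nearest tested neighbours, 0 were higher and 10 lower in mock Mpcoi1, and 11 were higher and 3 lower in mock Mpdes6fad5. The count of 0 was from limma, with 1 at an unadjusted p under 0.05 and 0 by voom.

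After wounding, MpNPF9 parted from most of that stretch in Tak-1. Of the 9 other genes of the run in mock Mpcoi1, Mp3g09190 alone was called lower in wounded Tak-1, by -0.44 log2 units, and Mp3g09160 alone in wounded Mpcoi1, by -0.44. Of all genes, 30.6% were called lower in Tak-1 and 28.5% in Mpcoi1, so most genes were not called lower either. Mp3g09220 rose in Tak-1, to 22.5 ± 4.97 CPM in wounded plants against 15.4 ± 0.332 CPM in mock plants (0.50 log2 units), while it averaged 22.6 ± 0.559 CPM in wounded and 21.6 ± 2.01 CPM in mock Mpdes6fad5. Mp3g09250, the next gene after MpNPF9, rose in each genotype, by 0.62, 1.49 and 0.64 log2 units in Mpcoi1, Mpdes6fad5 and Tak-1. In Mpcoi1, Mp3g09220 averaged 0.573 CPM and Mp3g09230 had no reads before wounding, which left little or no room for a fall. In Mpdes6fad5, 2 of the 24 nearest tested neighbours were called lower and 7 higher after wounding, where 28.9% and 28.1% of all genes were. The counts were 6 lower and 8 higher in Tak-1, where 30.6% and 26% of all genes were. In Mpcoi1 they were 3 lower and 9 higher, where 28.5% and 24.5% were. The level before wounding thus went with the neighbours, and in Tak-1 the fall after wounding did so for Mp3g09190 alone of the run.

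**Figure D4:**
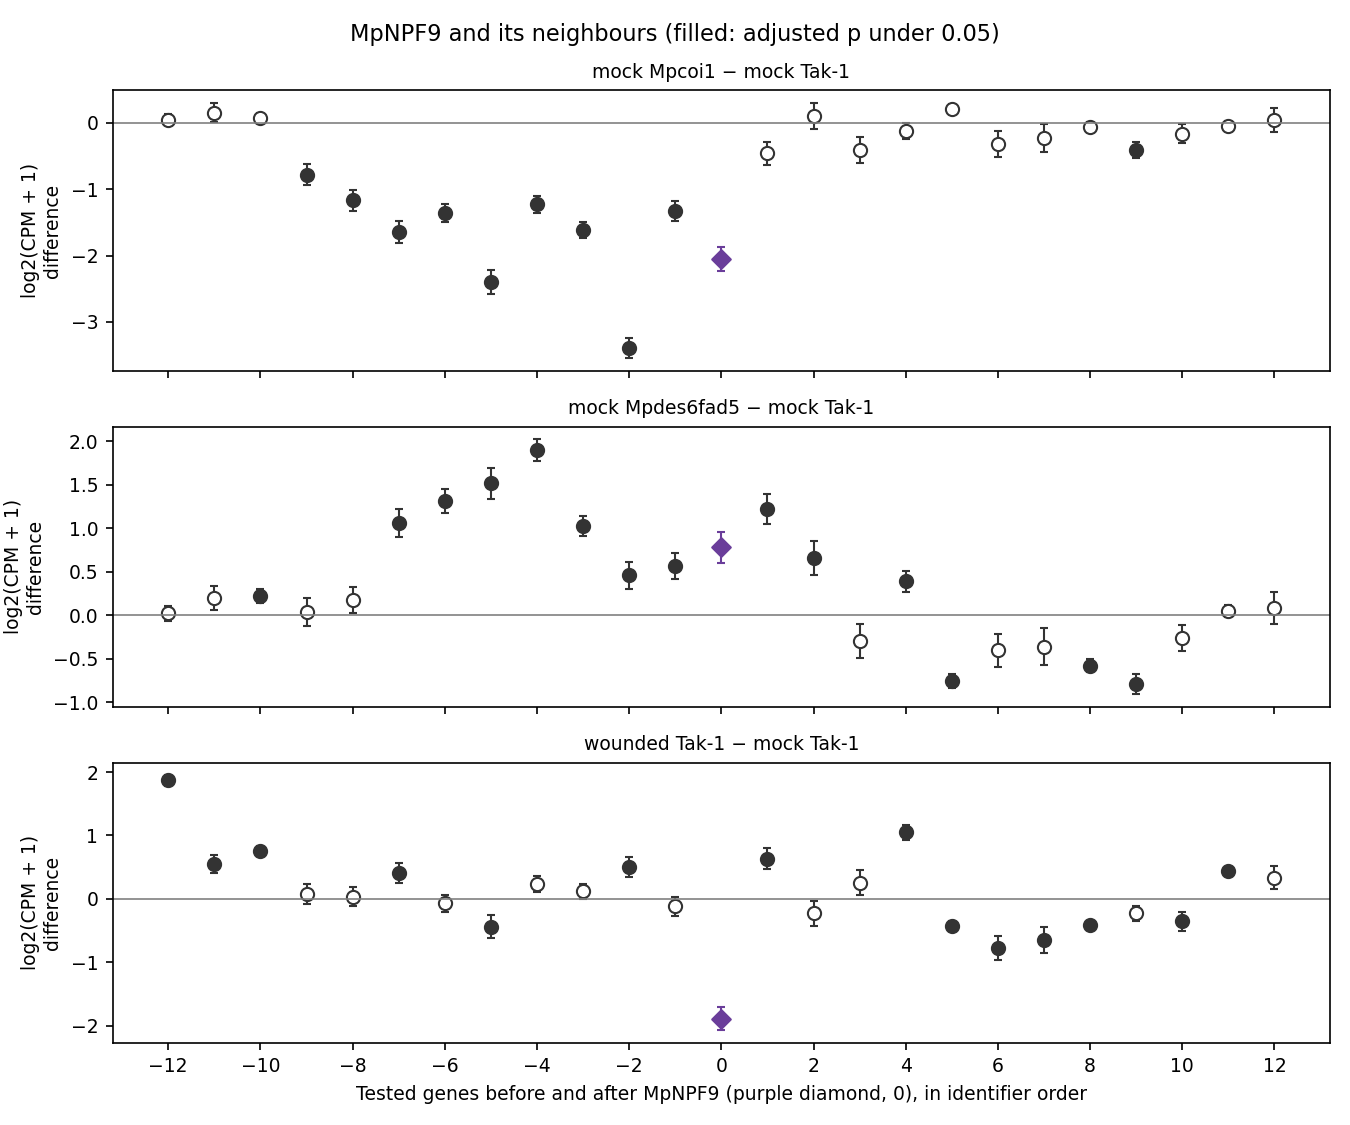
Log2(CPM + 1) differences (points; bars are SE) of MpNPF9 and 12 tested genes on each side in identifier order, for mock Mpcoi1 minus mock Tak-1, mock Mpdes6fad5 minus mock Tak-1, and wounded minus mock Tak-1. MpNPF9 ends 10 adjoining genes that are lower in mock Mpcoi1 and lies in 10 that are higher in mock Mpdes6fad5, but is far below its neighbours in the wound response, at -1.89.

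Of the 34 other listed NPF genes, 22 were tested. After wounding, 10 were called lower and 0 higher in Mpcoi1, 6 lower and 8 higher in Mpdes6fad5, and 7 lower and 7 higher in Tak-1. The count of 0 was from limma, with 0 at an unadjusted p under 0.05 and 0 by voom, while 24.5% of all genes were called higher in that comparison. The median NPF gene differed by -0.27, 0.07 and -0.05 log2 units in Mpcoi1, Mpdes6fad5 and Tak-1. MpNPF12 and MpNPF14 fell in each genotype as MpNPF9 did, MpNPF14 with differences of -0.70, -0.89 and -0.98 log2 units in Mpcoi1, Mpdes6fad5 and Tak-1 (SE 0.10), and MpNPF12 with differences of -1.17, -0.53 and -1.23 (SE 0.15).

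The response was lower in Mpcoi1 than in Tak-1 for 5 of the 22, where 5.17% of all genes were called lower and 2.4% higher, and higher for 0 by limma, by voom and at an unadjusted p under 0.05. They were MpNPF5, MpNPF21, MpNPF22, MpNPF23 and MpNPF26, of which MpNPF22 and MpNPF26 were singled out after their values were seen. MpNPF21 averaged 34.0 ± 6.78 CPM in wounded and 70.2 ± 2.4 CPM in mock Mpcoi1, but 196 ± 69.1 CPM in wounded and 90.2 ± 14.4 CPM in mock Tak-1. It fell in Mpcoi1 and rose in Tak-1, with a difference of -2.11 ± 0.25 log2 units (SE; limma, adjusted p = 1.32e-05). MpNPF21 was named by the size of its Tak-1 response, which is part of that difference. MpNPF26 likewise averaged 4.04 ± 0.896 CPM in wounded and 6.62 ± 0.734 CPM in mock Mpcoi1, and 26 ± 5.17 CPM in wounded and 13.6 ± 0.959 CPM in mock Tak-1 (difference -1.48 ± 0.20, given as a description). Both rose in Mpdes6fad5, by 1.15 and 1.13 log2 units. For Mpdes6fad5 minus Tak-1 the response was higher for 1 and lower for 1 of the 22, where 7.47% and 7.37% of all genes were called. For Mpdes6fad5 minus Mpcoi1 it was higher for 7 and lower for 0, where 10.2% and 8.13% were called, with 0 lower at an unadjusted p under 0.05 and 0 by voom. MpNPF9, by contrast, lay lower after wounding in each genotype. Before wounding, 3 of the 22 were called lower and 0 higher in Mpcoi1 against Tak-1, where 4.56% and 2.1% of all genes were. That count of 0 was from limma, with 1 at an unadjusted p under 0.05 and 0 by voom. In mock Mpdes6fad5 against mock Tak-1, 7 were called lower and 3 higher, where 20.4% and 17.5% of all genes were.

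**Figure D5:**
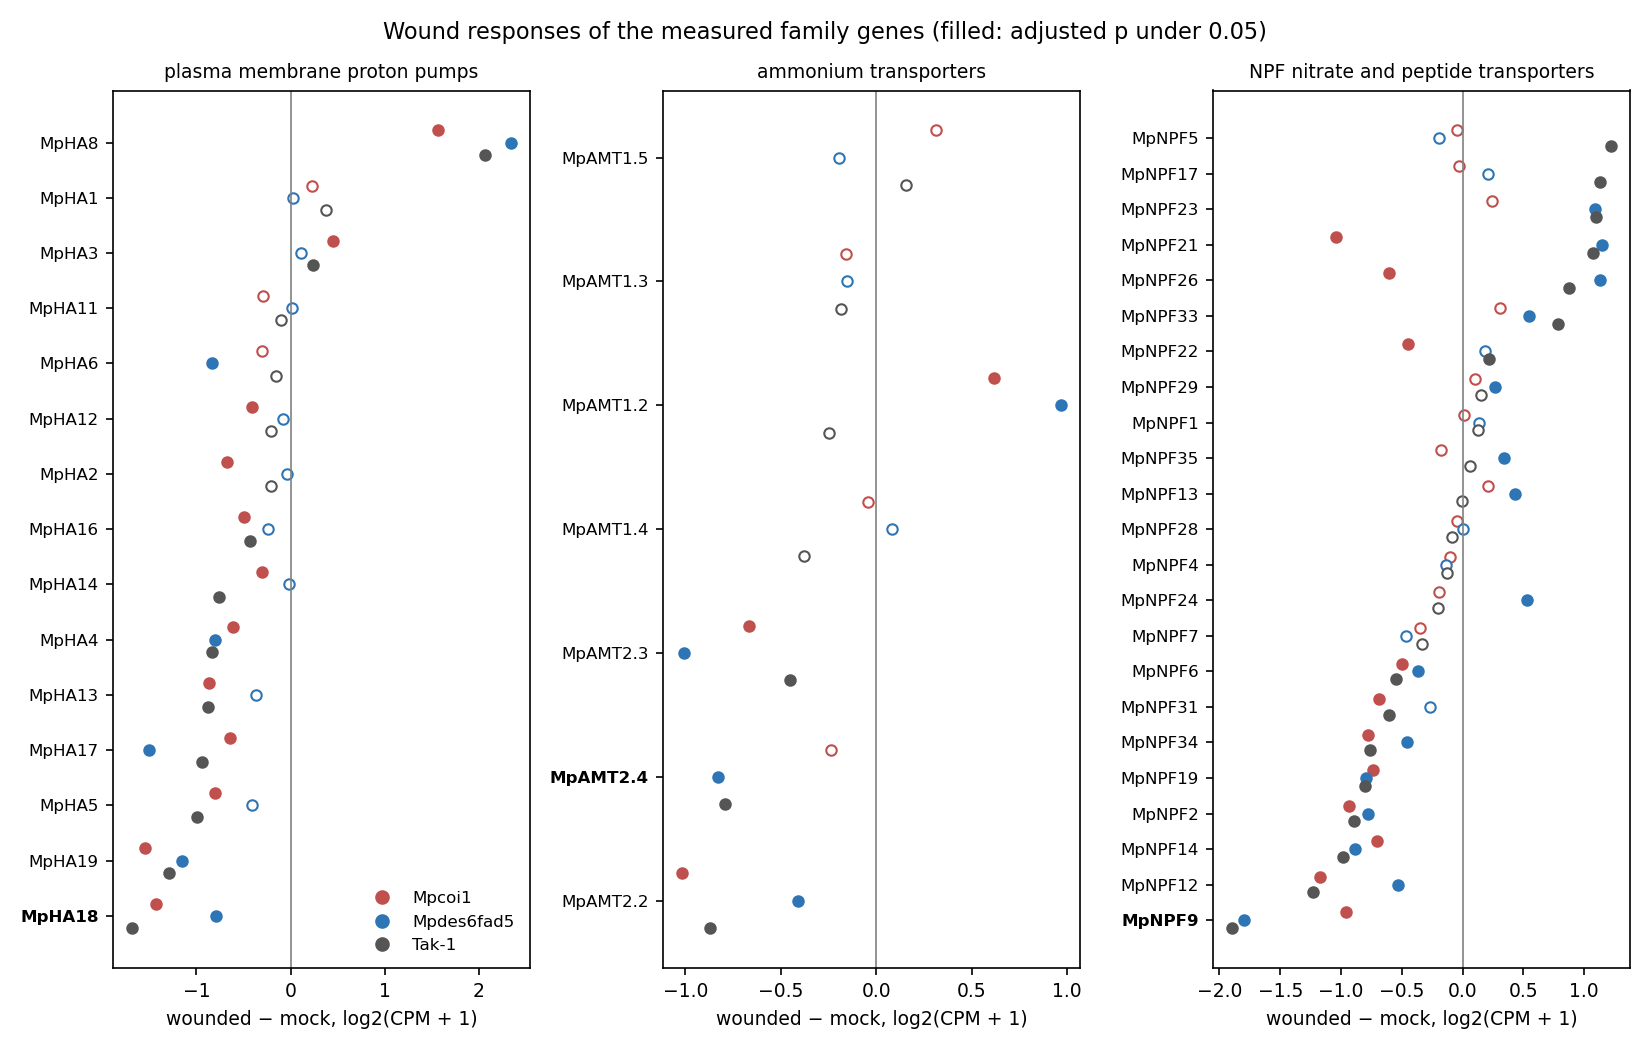
Wounded minus mock differences on the log2(CPM + 1) scale for each tested proton pump, ammonium transporter and NPF gene (points by genotype; filled where the adjusted p is under 0.05; the 3 described genes in bold). Genes run from the lowest Tak-1 value at the bottom to the highest at the top, where MpHA8 reaches 2.07 in Tak-1.

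The 5 listed aquaporins, membrane water channels, were all called lower after wounding in Mpcoi1 and in Tak-1, and 4 of 5 were in Mpdes6fad5, against 28.5%, 30.6% and 28.9% of all genes. The symbol pattern asked for a digit, so the tested gene MpNIP was not on the list, and its wound response was not looked at. MpPIP2-like averaged 12.4 ± 2.08 CPM in wounded and 29.2 ± 1.71 CPM in mock Mpcoi1, 5.23 ± 1.57 CPM in wounded and 10.7 ± 0.609 CPM in mock Mpdes6fad5, and 17.5 ± 2.50 CPM in wounded and 45.3 ± 4.78 CPM in mock Tak-1. Before wounding it too was lower in Mpdes6fad5 against Tak-1 (-1.99 ± 0.15 log2 units, limma, adjusted p = 2.49e-08). MpPIP2-like was named by the size of its Tak-1 response, which uses the same mock Tak-1 libraries.

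The genes whose profiles were most like each of the 3 were found by Pearson's r of log2(CPM + 1) over the 18 libraries, a description in which libraries share genotype and treatment. For MpHA18 the 5 nearest were Mp1g03320, Mp7g06780, Mp7g06610, Mp8g11790 and Mp4g07210, with r between 0.98 and 0.99. None of these has a symbol in the reference table. The vacuolar water channel gene MpTIP1 was the nearest named gene, at rank 28 with r = 0.97. For MpAMT2.4 the nearest were MpGH16.34 (r = 0.92), MpPPO38 (r = 0.90), Mp1g20200, MpPPO40 and MpNUDIX, down to r = 0.85. The polyphenol oxidase gene MpPPO38 averaged 0.467 CPM in mock Mpcoi1, 1.6 CPM in mock Mpdes6fad5 and 20.7 CPM in mock Tak-1. For MpNPF9 they were MpBHLH29 (r = 0.95), Mp3g19380, Mp8g17800, Mp8g02320 and the peroxidase gene MpPOD168, down to r = 0.94.

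The 3 genes did not share a profile. Over the 18 libraries r was 0.09 between MpHA18 and MpAMT2.4, -0.18 between MpHA18 and MpNPF9, and 0.70 between MpAMT2.4 and MpNPF9. What they had in common was the wounded libraries below the mock ones in Mpdes6fad5 and in Tak-1, where 34.4% and 31.7% of all genes had groups apart in that direction. All 3 were chosen by comparisons that held the mock Tak-1 libraries, and MpHA18 by one that held mock Mpdes6fad5. The Tak-1 part, and the Mpdes6fad5 part for MpHA18, are thus not free of the choice.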

How the data were processed

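The deposited table holds log2 CPM values made by the authors on a scaled library size with a small prior count. Trim Galore, HISAT2, HTSeq and edgeR are named per the submitters' processing notes; versions, genome build and counting strand were not given in the sources used here. CPM was recovered as 2 to the power of the deposited log2 value, minus the table's common floor of 0.0886 CPM. Every value up to 1000 reads came out as a whole read count within 0.01 reads. Of 20574 listed genes, 2688 had no reads. Depth was 19382332 to 26303510 reads per library. Symbols came from a RefSeq gene table of assembly MpTak2_v7.1, which matched 17641 identifiers and gave 3091 a symbol; its coordinates were not used, and neighbours follow identifier order.

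Genes at 1 CPM or more in at least 3 libraries (13220) entered 1 model of the 6 groups on log2(CPM + 1), with a mean-dependent variance (limma 3.58.1, R 4.3.3). Calls used an adjusted p under 0.05 (Benjamini-Hochberg over all genes tested). The script was tested on simulated data. Alternatives were the added constant, the filter, 3 rescalings, the deposited values as they are, voom on the recovered reads, a robust fit, only the groups compared, a replicate block and each library left out. The members, lists and tests were chosen with earlier results of these data known. Lists followed symbol patterns, and counts leave out the 3 described genes. Named were all tested HA and AMT genes, up to 6 NPF genes and up to 3 of each other list by the size of the Tak-1 response, the 5 most similar genes and 2 identifiers on each side. The wider window of 12 genes and the shares of reads were added after the values were seen. Replicates are pools of plants labelled as independent. Replicate numbers did not pair the libraries over all groups. No columns were left without a sample, and no sequences were used.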

Additional observations from a re-analysis of the deposited data

Results flagged for a closer look

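Among the transport genes named by rule, wound responses differed between genotypes for 18, by limma's test of the difference on the log2(CPM + 1) scale at an adjusted p under 0.05. Over all genes, 2.4% were called higher and 5.17% lower for Mpcoi1 minus Tak-1. The shares were 7.47% and 7.37% for Mpdes6fad5 minus Tak-1, and 10.2% and 8.13% for Mpdes6fad5 minus Mpcoi1. Outside the HA and AMT lists, the named genes were picked by the size of the Tak-1 response, so the count of 18 is a description. It takes a call in any of these comparisons, while each share is for a single comparison. The shares are thus no direct background for it. Other genes of the lists, such as MpNPF22 and MpNPF26, also differed. In this list each value is the first genotype's response minus the second's.

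For Mpcoi1 minus Tak-1, the difference was -0.50 for MpHA8, 0.86 for MpAMT1.2, -1.27 for MpNPF5, -0.86 for MpNPF23, -2.11 for MpNPF21 and -0.40 for MpPMT.3. The largest, for MpNPF21, set a fall in Mpcoi1 against a rise in Tak-1.

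For Mpdes6fad5 minus Tak-1, the pumps MpHA14 and MpHA6 differed by 0.74 and -0.68, and MpAMT1.2 by 1.21. MpNPF12 and MpNPF5 differed by 0.69 and -1.41, and the chloride channel family gene MpCLC1 by -0.26. The potassium channel gene MpAKT1 differed by 0.50, MpPTB5 by 1.03, MpABCB3 by -0.40, MpPIP1 by -1.45, the amino acid permease gene MpAAP1 by 0.64 and MpPMT.3 by -0.33.

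For Mpdes6fad5 minus Mpcoi1, the pumps MpHA17, MpHA2, MpHA3 and MpHA8 differed by -0.86, 0.64, -0.34 and 0.77. MpNPF12, MpNPF23 and MpNPF21 differed by 0.64, 0.85 and 2.19, and MpAKT1, MpABCB3 and MpAAP1 by 0.81, -0.55 and 1.14.

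Several of these calls were not stable. Of 12 fits that each left out 1 library, the call was lost in 9 for MpPIP1, 8 for MpHA6, 7 for MpNPF12, 6 each for MpPTB5, MpABCB3 and MpCLC1, and 1 for MpAKT1 in Mpdes6fad5 minus Tak-1. It was lost in 7 for MpHA17 and 8 for MpNPF12 in Mpdes6fad5 minus Mpcoi1. Voom on the recovered reads did not call MpPIP1, MpHA6, MpPTB5, MpHA17 or either difference of MpNPF12. The other 19 differences kept their call in each of those fits and by voom.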

How the results depend on the processing

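The tested falls of MpHA18 in Mpcoi1 and of MpAMT2.4 and MpNPF9 in Mpdes6fad5 kept their direction and stayed past the threshold under the 12 other settings and without each library in turn. Adjusted p reached at most 1.98e-05, 0.0188 and 1.70e-06, the second without Mpdes6fad5 mock replicate 1. Library numbers showed no pairing over all groups: over 45 same-numbered pairs of groups the correlations ran from -0.334 to 0.555, with 10 over 0.1. In 16 of the 45 the correlation was best with the own number. Between mock Mpcoi1 and mock Tak-1 each number matched best with itself, at 0.108, 0.088 and 0.061. Between wounded Mpcoi1 and wounded Tak-1 the values were 0.163, 0.199 and 0.555. A pairing within a treatment was not tested apart from the block below. With the replicate as a block, 6969 genes in place of 6999 were called in the Mpcoi1 wound response, and 911 in place of 881 in mock Mpcoi1 against mock Tak-1. That last count ran from 362 to 1397 without 1 library each, yet the 9 neighbours of MpNPF9 were all called lower in each of those fits. In mock Mpdes6fad5, 7 to 9 of the 9 neighbours were called higher without 1 library. A minimum mean of 5 CPM left 4 and 2 of them, since fewer genes were tested.

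Small family counts moved. NPF genes called higher in Mpcoi1 became 1 with no filter (0 to 1 without 1 library). Pumps lower in Mpdes6fad5 became 2 at a mean of 5 CPM, and pumps higher there were 1 to 2 without 1 library. AMT genes lower in Mpdes6fad5 became 1 by voom (1 to 2 without 1 library), and NPF genes higher there reached down to 5 without Mpdes6fad5 wounded replicate 3. In Tak-1, pumps called higher became 1 with quantile normalization or library totals. AMT genes called lower in Tak-1 became 1 with no filter, median-of-ratios rescaling or only the groups compared, 4 with library totals, and 1 to 3 without 1 library. MpAVP2 in Tak-1 turned to -0.081 with quantile normalization; the cause was not tested. Library totals put the median gene at 0.14 in place of 0.01 in mock Mpdes6fad5 minus mock Tak-1, where 73.8% in place of 46.2% of calls were higher. In the wound responses, 35.0% to 37.6% of calls were higher with quantile normalization or library totals in Mpdes6fad5 and Tak-1, in place of 49.3% and 46.0%. In Mpcoi1, 37.5% with either of these stood in place of 46.2%. For mock Mpdes6fad5 minus mock Mpcoi1, 71.6% with library totals stood in place of 48.2%. For the difference of responses, 43.2% with quantile normalization stood in place of 55.6% for Mpdes6fad5 minus Mpcoi1, and 40.2% with median-of-ratios rescaling in place of 50.3% for Mpdes6fad5 minus Tak-1. For Mpcoi1 minus Tak-1, 41.6% with quantile normalization and 41.4% with library totals stood in place of 31.7%.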

Other observations

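Of 88 tested ABC transporters, ATP-driven exporters for the most part, 35 were called higher and 24 lower after wounding in Mpcoi1, 38 and 18 in Mpdes6fad5, and 37 and 27 in Tak-1. Over all genes, 24.5% were called higher and 28.5% lower in Mpcoi1, 28.1% and 28.9% in Mpdes6fad5, and 26% and 30.6% in Tak-1, so the counts of lower ABC genes were near or below the background. MpABCB3 averaged 515 ± 46.3 CPM in wounded and 50.3 ± 1.96 CPM in mock Mpcoi1, 378 ± 34.6 CPM in wounded and 54.0 ± 1.60 CPM in mock Mpdes6fad5, and 520 ± 56.8 CPM in wounded and 56.5 ± 3.62 CPM in mock Tak-1 (SD, n = 3 each). MpABCG29 rose by 3.49, 3.20 and 3.59 log2 units in Mpcoi1, Mpdes6fad5 and Tak-1, and MpABC85 by 3.20, 3.30 and 3.14. The size of the MpABCG29 rise depended on the processing. Over the settings it ran from 1.70 to 6.41 in Mpcoi1, 1.59 to 5.10 in Mpdes6fad5 and 1.81 to 6.59 in Tak-1. Of 13 tested sugar and amino acid transporters, 4 were higher and 6 lower in Mpcoi1, 5 and 3 in Mpdes6fad5, and 4 and 2 in Tak-1, to be read against the same background. The sucrose transporter gene MpSUT4 rose by 2.45, 2.41 and 1.75 log2 units in the same order.

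Against that background, of the 7 tested phosphate and sulfate transport genes, 2 were higher and 2 lower in Mpcoi1, 1 and 3 in Mpdes6fad5, and 0 and 5 in Tak-1, where limma and voom called 0 higher and 0 had an unadjusted p under 0.05. MpPTB2 fell in each, with differences of -0.74, -1.05 and -1.31 log2 units in Mpcoi1, Mpdes6fad5 and Tak-1. Of the 5 genes matched as potassium and cation transporters, the potassium channel gene MpTPK1 rose by 1.17, 1.57 and 1.06. MpHAKAI, which the symbol pattern also took in, is not known as a transporter. Of 3 tested vacuolar pump genes, MpVHA-a and MpAVP3 fell in each genotype, with differences of -0.51, -0.41 and -0.34 and of -0.38, -0.24 and -0.20. Of 6 fits without 1 library, the call of MpAVP3 was lost in 1 in Mpdes6fad5 and in 3 in Tak-1. The third, MpAVP2, was called higher in Tak-1 only, at 0.11 to 0.16 without 1 library, and lost that call in 3 of 6 fits. The nitrate list held MpCLC1 alone, at -0.24 and -0.29 in Mpcoi1 and Mpdes6fad5 (called lower) and -0.02 in Tak-1 (not called).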
